A study of Mus musculus with 5 samples.

Results

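The genes described here are 34 genes of the contractile apparatus and cytoskeleton of smooth muscle, taken by symbol from a table of 23478 genes counted in GFP-sorted lung cells of mouse pups. They comprise the smooth muscle actins, myosin chains, tropomyosins, calponins and other thin filament proteins, intermediate filaments, proteins of the Z-disc and of its smooth muscle counterpart, the dense body, and serum response factor (SRF) with its coactivators. All 34 were in the table, and all 34 passed the filter on low counts that left 15298 genes to test. The lowest count of any of them in any library was 40, for Ldb3.

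The mice carried Gli1creER, in which tamoxifen-activated Cre is driven by the Hedgehog target Gli1, and a Rosa-EGFP reporter that Cre switches on. Each pup received tamoxifen (100 µg) on both P0 and P1, and GFP-positive cells were sorted at P6. The 2 control libraries came from pups with 1 floxed and 1 wild-type Igf1r allele, and the 3 Igf1r-deleted libraries from pups with 2 floxed alleles, so the controls can lose 1 copy of the receptor gene and the other group can lose 2. The comparison asks which transcripts differ in Gli1-lineage lung mesenchyme that can lose both copies of Igf1r rather than 1. Igf1r encodes the receptor for the insulin-like growth factors, and P6 lies in the first week after birth, when alveoli form. The sorted cells are those that expressed Gli1 at the time of tamoxifen, with their progeny. The labels call them fibroblasts, and the number of pups behind each library is not given, nor is it stated that libraries came from separate litters. P-values therefore measure only the spread between these 5 libraries.

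In smooth muscle, myosin filaments slide along thin filaments of actin and tropomyosin, which are held at dense bodies by alpha-actinin and filamin and joined to a network of desmin. Force begins when calmodulin and its kinase phosphorylate the regulatory light chain of myosin. Many of the genes are controlled by SRF, which binds a short A/T-rich element, the CArG box, and is activated by myocardin or by the actin-sensing myocardin-related factors (Mkl1 and Mkl2). In the lung the same genes mark airway and vascular smooth muscle and, more weakly, the alveolar myofibroblasts that form secondary septa.

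The promoters are shown because they are the DNA through which SRF is known to act on this gene family. RefSeq promoter sequences (GRCm38.p6, the mm10 build) were matched for 29 of the 34 genes, and Actg2, Myh11, Tagln, Csrp2 and Myocd had no entry. An exact CArG box (2 C, 6 letters that are each A or T, then 2 G, a pattern that reads alike on both strands) lay within the 250 bases before a transcription start of 7 of the 29 genes (24.1%), against 439 of 27025 genes in the same table (1.62%). When 1 of the 6 central letters could also be C or G, 12 of the 29 genes (41.4%) had a match, against 9.78% of all genes. Such a match is a description of the letters and not evidence of binding. In the stretches that follow, written 5′ to 3′ on the strand of the gene, capitals mark the boxes. Of the 6 genes with the smallest p-values, Acta2 and Myl9 had a match, Smtn, Tpm1 and Hspb7 had none, and the promoters of the other genes were printed after their values were seen because they held an exact box. Bases annotated as exon are left out of the 2 longer stretches. The Myl9 stretch (chr2:156775214-156775419, plus strand) held an exact box 161 bases before the start and a box with 1 G in its centre 99 bases before it. The Srf stretch (chr17:46556176-46556412, minus strand) held exact boxes 82 and 62 bases before the start.
Myl9 promoter: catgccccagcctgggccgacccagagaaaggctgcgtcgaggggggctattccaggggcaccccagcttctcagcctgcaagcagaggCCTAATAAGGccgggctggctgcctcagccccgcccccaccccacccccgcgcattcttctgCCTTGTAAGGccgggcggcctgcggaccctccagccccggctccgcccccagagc
Srf promoter: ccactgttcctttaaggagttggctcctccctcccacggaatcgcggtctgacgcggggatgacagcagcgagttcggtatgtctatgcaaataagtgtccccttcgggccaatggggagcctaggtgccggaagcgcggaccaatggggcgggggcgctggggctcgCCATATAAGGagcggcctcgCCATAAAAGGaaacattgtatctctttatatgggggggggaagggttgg

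The remaining boxes are shown with 10 bases on either side. The Acta2 promoter had no exact box but 2 with 1 letter C or G in the centre, 84 bases (chr19:34255438-34255467, minus strand) and 34 bases (chr19:34255388-34255417) before the RefSeq start, where GENCODE M21 annotates exons over 217 of the 250 bases. Exact boxes lay 56 bases before the start of Cnn2 (chr10:79988534-79988563, plus strand), 50 bases before one start of Myl6 (chr10:128493040-128493069, minus strand), 35 bases before one start of Ldb3 (chr14:34588697-34588726, minus strand) and 102 bases before one start of Fhl1 (chrX:56779571-56779600, plus strand). Fhl2 had an exact box at each of 2 starts, 96 bases (chr1:43196838-43196867, minus strand) and 31 bases (chr1:43163973-43164002) before them. The boxes of Myl6, Fhl1 and Fhl2 lie inside the bounds that GENCODE M21 gives these genes. Before the Fhl2 start with the box at 96 bases, 223 of the 250 bases were set aside as exonic. Before the Myl6 start with the box, all 250 bases were annotated as exon, the box included.
Acta2, 84 bases before the start: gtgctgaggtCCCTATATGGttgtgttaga
Acta2, 34 bases before the start: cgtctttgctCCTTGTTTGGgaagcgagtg
Cnn2: cgcttccacgCCTTATAAGGacatttgctc
Myl6: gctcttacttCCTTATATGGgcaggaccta
Ldb3: gggttacagtCCATTTATGGgcgcagcaag
Fhl1: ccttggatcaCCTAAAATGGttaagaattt
Fhl2, 96 bases before the start: catttagagaCCAAAAAAGGcttgcaggag
Fhl2, 31 bases before the start: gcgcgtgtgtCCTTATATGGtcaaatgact

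The 5 libraries held 35116766 to 37597857 counts each. Levels are in CPM, a gene's share of its library's counts scaled to a common size with edgeR's TMM factors, and are listed in the order control replicate 1, control replicate 2, then Igf1r-deleted replicates 1, 2 and 3. Igf1r checks the genotypes. It measured 324 and 324 CPM in controls against 140, 177 and 194 CPM after deletion, without overlap (log2 fold change -0.93, SE 0.14). The source of the Igf1r transcript that remained after deletion was not tested. Between libraries of 1 genotype, the chi-square over genes was 20.8 to 45.3 per degree of freedom, where counting error alone gives about 1. Control replicate 1 stood apart for the contractile genes. It had the lowest level of the 5 libraries for 32 of the 34 genes, against 28.1% of all genes tested. It had the highest for 1 of the 34, against 26.4% of all genes. For 27 of the 34, the gap between the controls exceeded that from control replicate 2 to the mean of the Igf1r-deleted libraries (log2 CPM). The share of all genes with such a gap was not computed. The log2 fold changes of the 34 genes are therefore given with and without control replicate 1. Without it, the fit has 1 control, which is assumed to vary like the other libraries.

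Contractile and cytoskeletal transcripts were higher in Igf1r-deleted cells by a modest margin, and no gene passed correction for multiple tests. The log2 fold change was above 0 for 32 of the 34 genes, against 52.3% of all genes tested, and its median was 0.36, against 0.01 over all genes. For 20 genes every Igf1r-deleted library exceeded both controls, against 16.0% of all genes, and for 1, Synm, every one lay below both, against 14.9%. An unadjusted p-value under 0.05 (edgeR's quasi-likelihood F test) was reached by 17 genes that were higher, against 5.65% of all genes, and by 1 that was lower, again Synm, against 6.75%. After Benjamini-Hochberg adjustment the p-values of the 34 genes in the same test were 0.354 to 0.945, and no gene of the whole table passed 0.05 (0%). Acta2, Actg2, Myl9, Tpm1, Tpm2, Smtn, Pdlim7, Actn1, Hspb7 and Myocd shared the smallest adjusted p of 0.354, and Synm had 0.398. DESeq2's Wald test called 1 of the 34, Acta2 (adjusted p = 0.0483), against 0.454% of the genes with an adjusted p called higher and 1.16% called lower. Because the cells were measured in bulk, more cells that express these genes and more RNA per cell cannot be told apart.

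**Figure D1:**
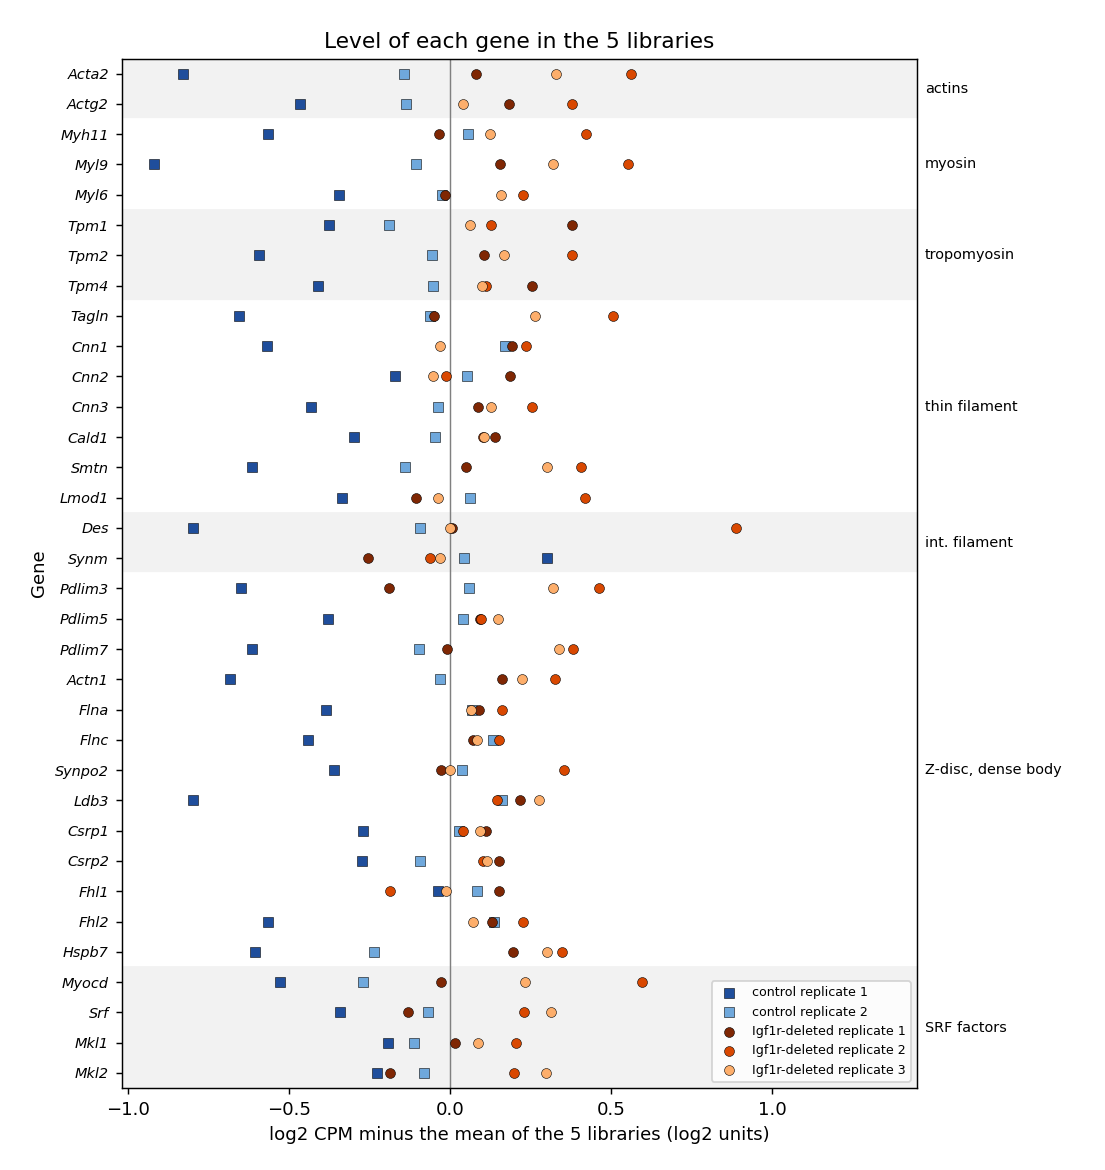
Level of each of the 34 genes in the 5 libraries, as log2 CPM minus the mean of the 5 libraries (log2 units), with genes in rows by role, squares for the 2 controls and circles for the 3 Igf1r-deleted libraries. Control replicate 1 is the lowest point for 32 genes, and Igf1r-deleted replicate 2 the highest for 22.

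The size of the difference depended on the controls. Without control replicate 1 the median log2 fold change of the 34 genes was 0.19, with 29 higher, against 52.5% of all genes in that fit, and 5 lower. Myl9 alone stayed under an unadjusted p-value of 0.05, against 1.15% of all genes higher and 1.61% lower, and all adjusted p-values of the 34 were 1. Without control replicate 2 the median was 0.57, with 33 higher, against 51.3% of all genes, and 25 higher genes were under 0.05, against 6.95% of all genes. Against control replicate 2 alone, all 3 Igf1r-deleted libraries were higher for 20 of the 34 genes, against 24.4% of all genes tested.

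**Figure D2:**
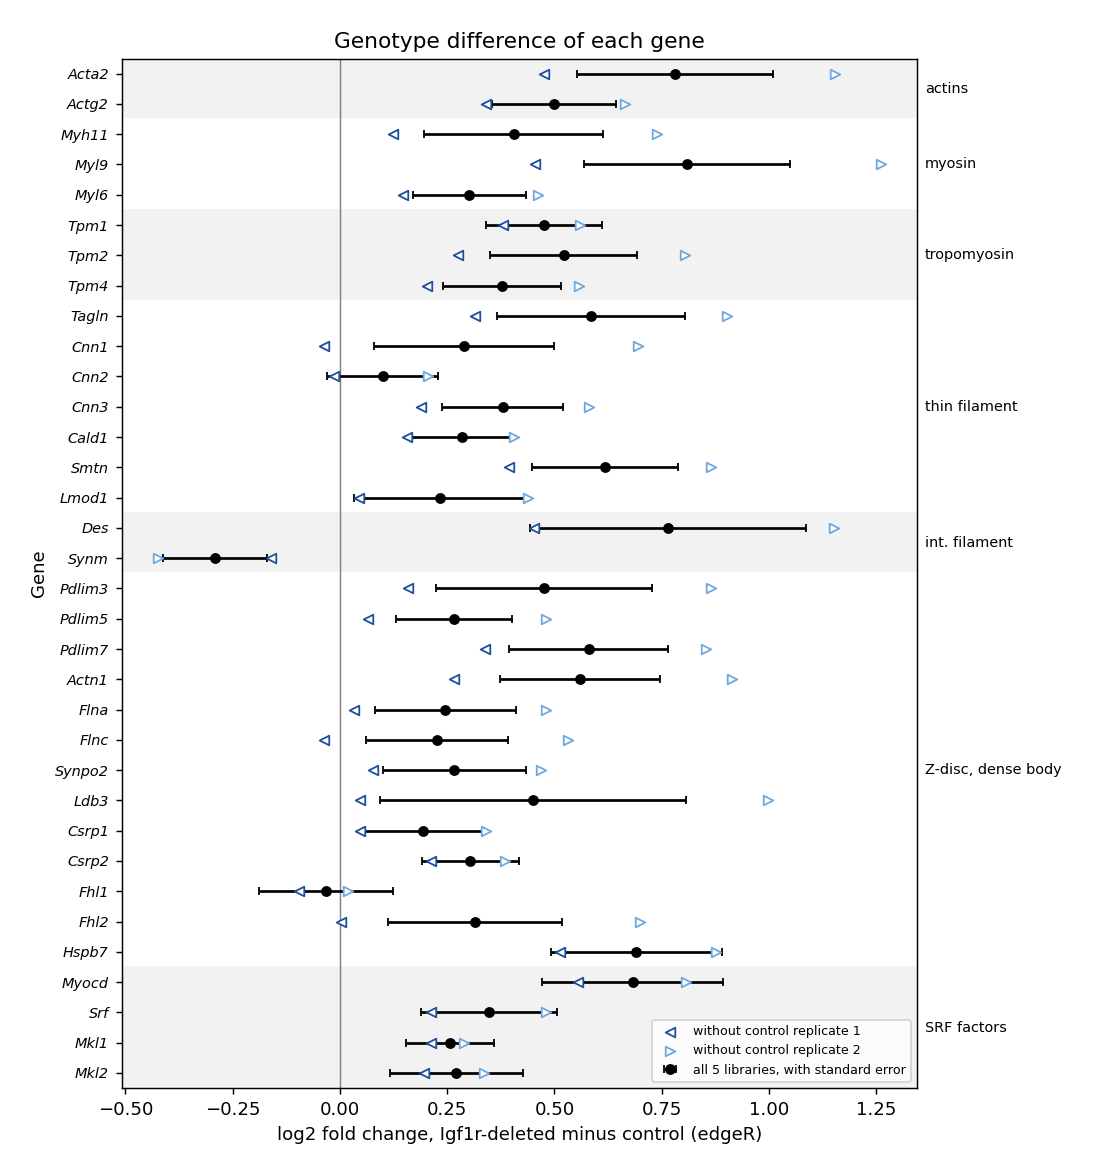
Log2 fold change of each gene (Igf1r-deleted minus control, edgeR) with its standard error as black points and bars, and the same value without control replicate 1 (left-pointing triangles) or without control replicate 2 (right-pointing triangles). Without control replicate 1 the values of all genes but Fhl1 lie closer to 0, and those of Cnn1, Cnn2 and Flnc lie just below it.

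**Figure D3:**
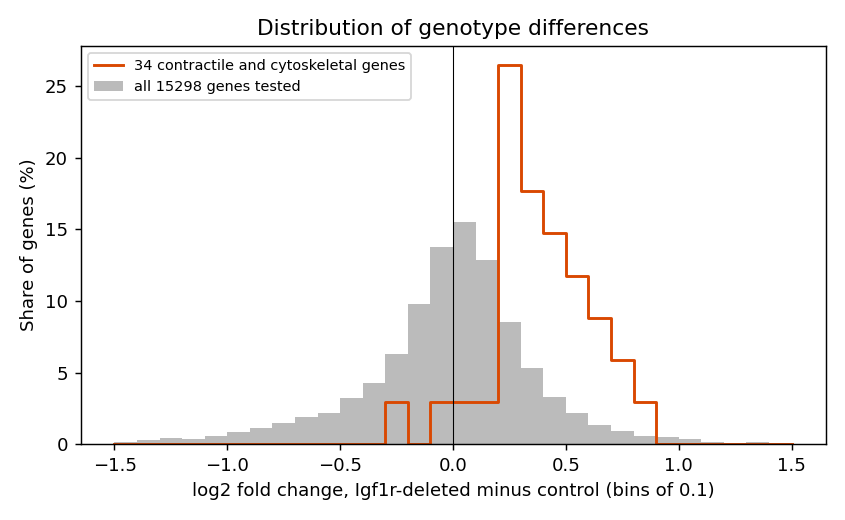
Distribution of log2 fold changes (Igf1r-deleted minus control, bins of 0.1) as the share of genes in percent, for all 15298 genes tested (grey bars) and for the 34 contractile and cytoskeletal genes (line). The median lies at 0.36 for the 34 genes and at 0.01 for all genes.

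The summed level of the 34 genes was 13120 and 16140 CPM in controls against 17300, 17060 and 16850 CPM after deletion, or 1.26% to 1.80% of all counts. The 3 deleted libraries lay above both controls, but by less than the controls differed from each other. Compared per kilobase of exon, Csrp1 (mean over the 5 libraries 1320 CPM per kb, SD 132) and Fhl1 (1290, SD 114), which encode LIM domain proteins, were the most abundant and did not differ beyond their spread. Acta2 (346, SD 114), Myl9 (286, SD 96.0), Tpm4 (283, SD 46.5), Flna (271, SD 37.2), Cnn2 (271, SD 25.1) and Tagln (242, SD 68.8 CPM per kb) followed, with neighbours again inside each other's spread. The late smooth muscle genes were far lower, with Myh11 at 31.5 (SD 7.35), Smtn at 23.0 (SD 5.97), Cnn1 at 11.8 (SD 2.41) and Lmod1 at 4.68 (SD 0.929) CPM per kb. Myocd at 2.0 (SD 0.616) and Ldb3 at 0.339 (SD 0.0851) CPM per kb were the least abundant. These levels use the merged exons of GENCODE M21, and reads that cross an intron may be missing, since Bowtie2 does not align a read across an intron. Of the 150-base windows along the longest coding transcript, 14.9% lay within 1 exon for Actg2 and 95.5% for Synm, so levels per length differ between genes in how much of them could be counted.

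Both smooth muscle actins were higher in Igf1r-deleted cells. Acta2, the alpha-actin that defines smooth muscle and myofibroblasts (chromosome 19, 34241090 to 34255590, minus strand, mm10), measured 407 and 655 CPM in controls against 764, 1067 and 907 CPM after deletion. The 3 deleted libraries lay above both controls, of which control replicate 1 was far the lower. Its log2 fold change was 0.78 (SE 0.23), and 0.47 (SE 0.21) without control replicate 1. Actg2, the gamma-actin of visceral smooth muscle, measured 44.3 and 55.7 against 69.6, 79.6 and 62.9 CPM, also without overlap. The log2 fold change of Actg2 was 0.50 (SE 0.14), and 0.34 (SE 0.17) without control replicate 1. Each of the 2 shared under 1.5% of its 31-base stretches with other genes (Acta2 1.39%, Actg2 1.21%), so few reads could be mistaken for those of another actin.

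Myl9, the regulatory light chain of smooth muscle myosin (chromosome 2, 156775420 to 156781658, plus strand), had the largest log2 fold change of the 34, at 0.81 (SE 0.24), which was 0.45 (SE 0.19) without control replicate 1 and 1.26 (SE 0.20) without control replicate 2. Its levels were 166 and 292 CPM in controls against 350, 461 and 393 CPM after deletion. The groups did not overlap, and control replicate 1 was again far below the other 4 libraries. The heavy chain Myh11, which marks mature smooth muscle, had a smaller difference. At 158 and 243 against 228, 314 and 255 CPM, its groups overlapped, because Igf1r-deleted replicate 1 lay below control replicate 2. Its log2 fold change was 0.41 (SE 0.21), and 0.12 without control replicate 1. Myl6, the essential light chain shared with nonmuscle myosin, measured 30.9 and 38.5 against 38.8, 45.8 and 43.7 CPM, a log2 fold change of 0.30 (SE 0.13). The groups of Myl6 were separated by less than 1 CPM, and it shared 11.4% of its 31-base stretches with other annotated genes. Its log2 fold change was 0.15 without control replicate 1.

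The 3 tropomyosins, which lie along the actin helix and govern access of myosin, were each separated between genotypes. Tpm1 measured 372 and 423 against 628, 527 and 504 CPM, a log2 fold change of 0.47 (SE 0.14). It was among the genes least affected by control replicate 1, with 0.38 (SE 0.17) without it, and Igf1r-deleted replicate 1 rather than replicate 2 was highest. Tpm2, the beta-tropomyosin of muscle, was at 48.6 and 70.3 against 78.7, 95.1 and 82.2 CPM, and its log2 fold change of 0.52 (SE 0.17) became 0.27 without control replicate 1. Tpm4, a mainly cytoskeletal form, was at 463 and 594 against 735, 666 and 660 CPM, a log2 fold change of 0.38 (SE 0.14), or 0.20 without control replicate 1. Of the 31-base stretches of Tpm4, 20.0% also occur in other annotated genes, which leaves its level less certain.

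Of the 7 calponins and other thin filament proteins, all were higher, 4 without overlap, against 16.0% of all genes, and their median log2 fold change was 0.29. Smtn, which encodes smoothelin, a protein of contractile smooth muscle (chromosome 11, 3517523 to 3540612, minus strand), had the smallest p-value of the 34 genes (0.00791, edgeR). It measured 63.8 and 88.8 CPM in controls against 101, 130 and 121 CPM after deletion, without overlap. The log2 fold change of Smtn was 0.62 (SE 0.17), and 0.40 (SE 0.17) without control replicate 1. Antisense exons of other genes cover 16.3% of its exon length, and 12% of its 31-base stretches are shared with other annotated genes.

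Tagln, which encodes the calponin-like actin bundler transgelin (SM22-alpha), measured 295 and 445 against 449, 660 and 557 CPM, a log2 fold change of 0.59 (SE 0.22), or 0.32 (SE 0.23) without control replicate 1. Its lowest deleted library stood only just above control replicate 2. Antisense exons of other genes, Pcsk7 among them, cover 67.9% of the exon length of Tagln, and whether the counting used strand is not given in the sources used here. Pcsk7 itself overlapped between the genotypes, with 33.0 and 36.9 against 34.9, 31.5 and 34.9 CPM. Cald1, which encodes caldesmon, an actin-binding inhibitor of myosin, was at 465 and 553 against 630, 614 and 615 CPM, a log2 fold change of 0.28 (SE 0.12), or 0.16 without control replicate 1.

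The 3 calponins had unequal values. Cnn1, the smooth muscle form, measured 21.4 and 35.7 against 36.3, 37.4 and 31.1 CPM. Its groups overlapped, and its log2 fold change of 0.29 (SE 0.21) turned to -0.04 without control replicate 1. The more widely expressed Cnn2, at 589 and 688 against 756, 658 and 639 CPM, overlapped as well, with a log2 fold change of 0.10 (SE 0.13) that became -0.01. Cnn3, the acidic calponin, did not overlap, at 278 and 366 against 399, 448 and 410 CPM, with a log2 fold change of 0.38 (SE 0.14) and 0.19 without control replicate 1. For Cnn3, 32% of the 31-base stretches are shared with other genes. Lmod1, the leiomodin that nucleates actin filaments in smooth muscle, measured 14.4 and 19.0 against 16.9, 24.3 and 17.7 CPM, with overlap and a log2 fold change of 0.23 (SE 0.20), or 0.04 without control replicate 1.

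The 2 intermediate filament genes went opposite ways. Des, which encodes desmin, the muscle intermediate filament protein, measured 60.5 and 98.7 CPM in controls against 106, 195 and 105 CPM after deletion. Its log2 fold change of 0.76 (SE 0.32) was 0.40 without Igf1r-deleted replicate 2, which held the highest level, and 0.45 without control replicate 1. Synm, which encodes synemin, a partner of desmin in the same filaments, measured 221 and 185 against 150, 172 and 176 CPM. It was the one gene of the 34 with all 3 deleted libraries below both controls and the only one whose highest level was in control replicate 1. The log2 fold change of Synm was -0.29 (SE 0.12), and -0.16 without control replicate 1.

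Among the 13 Z-disc and dense body genes, 12 were higher, against 52.3% of all genes, 6 of them without overlap, against 16.0%, and the median log2 fold change was 0.30. The 2 with the highest levels had small differences. Fhl1 measured 4662 and 5068 against 5324, 4210 and 4746 CPM, with a log2 fold change of -0.03 (SE 0.16) whose sign depends on the scaling (0.04 with library totals). Csrp1 was at 2129 and 2616 against 2771, 2638 and 2735 CPM, separated between genotypes by less than the controls differed, with a log2 fold change of 0.19 (SE 0.14). Without control replicate 1 these values were -0.10 for Fhl1 and 0.05 for Csrp1.

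Hspb7, a small heat shock protein of muscle that protects filamin (chromosome 4, 141420779 to 141425311, plus strand), had the largest log2 fold change of the Z-disc and dense body genes at 0.69 (SE 0.20). It measured 3.89 and 5.02 against 6.77, 7.52 and 7.29 CPM. The 3 deleted libraries were close together and above both controls, and the log2 fold change remained 0.51 (SE 0.25) without control replicate 1. The filamins had smaller values. Flna, the ubiquitous filamin, was at 1936 and 2649 against 2689, 2825 and 2641 CPM, and Flnc, the muscle filamin, at 53.7 and 80.0 against 76.6, 81.0 and 77.2 CPM. Both overlapped between genotypes, with log2 fold changes of 0.25 (SE 0.16) and 0.23 (SE 0.16) that became 0.03 and -0.04 without control replicate 1.

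Actn1, the alpha-actinin that anchors thin filaments at dense bodies, measured 166 and 261 CPM in controls against 298, 334 and 311 CPM after deletion. It did not overlap, and its log2 fold change was 0.56 (SE 0.19), or 0.27 without control replicate 1. The PDZ-LIM proteins, which bind alpha-actinin, were all higher. Pdlim7 measured 42.6 and 61.0 against 64.8, 85.0 and 82.5 CPM, a log2 fold change of 0.58 (SE 0.18), or 0.34 without control replicate 1. Pdlim5 was at 34 and 45.5 against 47.2, 47.2 and 49.1 CPM, without overlap (0.27, SE 0.14), and Pdlim3 at 78.5 and 128 against 108, 170 and 154 CPM, with overlap (0.48, SE 0.25). Without control replicate 1 the log2 fold change was 0.07 for Pdlim5 and 0.16 for Pdlim3.

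The other Z-disc and dense body genes had log2 fold changes of 0.27 to 0.45. Csrp2, a LIM protein of smooth muscle, was the one without overlap, at 17.0 and 19.3 against 22.8, 22.1 and 22.3 CPM, with a log2 fold change of 0.30 (SE 0.11), or 0.21 without control replicate 1. The groups of Synpo2, which encodes the actin bundler myopodin, overlapped, with 27.9 and 36.8 against 35.1, 45.8 and 35.8 CPM, and the log2 fold change of 0.27 (SE 0.17) was 0.08 without control replicate 1. Fhl2, a LIM protein that also acts as a cofactor of transcription, measured 12.8 and 20.8 against 20.7, 22.1 and 19.9 CPM, and its log2 fold change of 0.32 (SE 0.20) was 0.0019 without control replicate 1. Ldb3, a PDZ-LIM protein of striated Z-discs, measured 1.15 and 2.24 against 2.32, 2.21 and 2.42 CPM and had the widest error of the 34 (0.45, SE 0.36), with 0.05 without control replicate 1.

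SRF and its coactivators were all higher, 2 of the 4 without overlap, against 16.0% of all genes. Myocd, the myocardin that turns on the smooth muscle genes, was rare but separated, at 8.61 and 10.3 CPM in controls against 12.2, 18.7 and 14.6 CPM after deletion. With a log2 fold change of 0.68 (SE 0.21) it kept the largest value of the 34 genes without control replicate 1, 0.56 (SE 0.28). Srf measured 156 and 189 against 181, 232 and 246 CPM, a log2 fold change of 0.35 (SE 0.16) with overlap at Igf1r-deleted replicate 1. Mkl1, an actin-sensing coactivator, was at 48.6 and 51.5 against 56.2, 64.0 and 59.0 CPM (0.26, SE 0.10), without overlap and with controls that lay close together. Mkl2, its paralogue, was at 44.5 and 49.2 against 45.8, 59.8 and 64.0 CPM (0.27, SE 0.16), with overlap. Without control replicate 1 the log2 fold changes of Srf, Mkl1 and Mkl2 were 0.21, 0.21 and 0.20.

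The 7 genes with an exact CArG box near the start had log2 fold changes from -0.03 (Fhl1) to 0.81 (Myl9), with a median of 0.32, and the 22 genes with a promoter entry and no exact box from -0.29 (Synm) to 0.78 (Acta2), with a median of 0.33. An unadjusted p-value under 0.05 was reached by 1 of the 7, which was higher, and by 13 of the 22, of which Synm was lower, against 5.65% of all genes higher and 6.75% lower. The sequences allow no statement on boxes farther away, such as those in introns.

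Some forms took a larger share of their gene family in every Igf1r-deleted library than in either control, measured as shares of summed CPM per kb, which do not depend on library scaling. Acta2 made up 11.2% and 15.0% of the 6 actins in controls against 16.3%, 21.9% and 19.1% after deletion, while cytoplasmic Actb went from 64.2% and 60.9% to 61.1%, 58.3% and 61.5%. Myl9 made up 53.7% and 66.1% of the 3 regulatory light chains in controls against 68.3%, 75.2% and 73.4% after deletion, and its nonmuscle counterparts Myl12a and Myl12b correspondingly less. Actn1 rather than Actn4 made up 55.4% and 62.0% against 62.8%, 64.8% and 66.9% of the pair. Control replicate 2 lay close to Igf1r-deleted replicate 1 in the shares of Myl9, Acta2 and Actn1. The shares of Actg2 among the actins (1.73% and 1.80% against 2.09%, 2.31% and 1.87%) and of Flna among the filamins (95.1% and 95.1% against 95.5%, 95.7% and 95.7%) did not overlap either, by narrow margins.

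The shares of Myh11 among the myosin heavy chains (12.7% and 15.1% against 13.0%, 16.3% and 14.8%) and of Cnn1 among the calponins (2.31% and 3.16% against 2.94%, 3.19% and 2.80%) overlapped. Per length, Myl9 and Acta2 kept a near constant ratio, at 0.772 and 0.843 in controls against 0.865, 0.817 and 0.818 after deletion. The ratio of Myh11 to Acta2, by contrast, was 0.112 and 0.107 in controls against 0.0864, 0.0850 and 0.0812 after deletion, without overlap and with controls that differed little. With 2 libraries against 3 the smallest p-value an exact permutation test can give is 0.1, so no test of these ratios, which were chosen after their values were seen, was made.

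**Figure D4:**
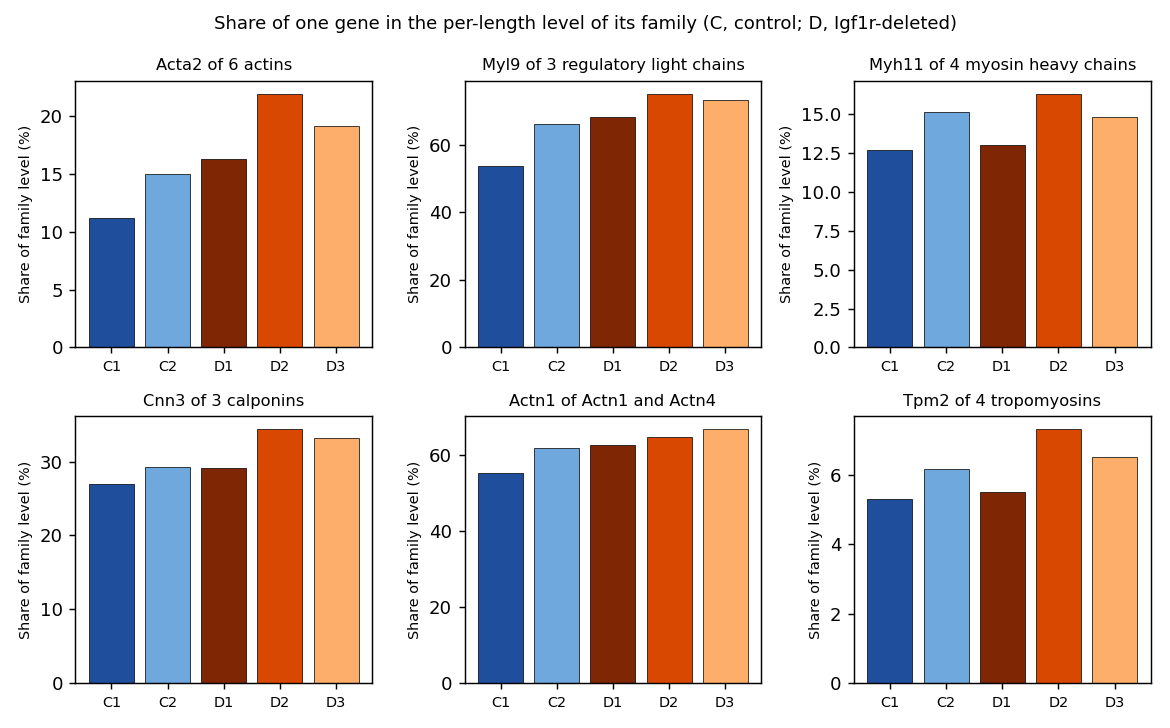
Share of 1 gene in the summed level per exon length of its family (percent, bars from 0) in the controls (C1, C2) and the Igf1r-deleted libraries (D1 to D3). Acta2, Myl9 and Actn1 take a larger share in all 3 deleted libraries than in either control, whereas the shares of Myh11, Cnn3 and Tpm2 overlap.

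Other genes that act with the contractile apparatus lay on both sides of 0. Of 18 genes of myosin light chain phosphorylation, 10 were higher and 8 lower, with 2 higher and 1 lower at an unadjusted p-value under 0.05 and a median log2 fold change of 0.06. Ppp1r12b, a targeting subunit of myosin phosphatase (log2 fold change 0.67), and the calmodulin gene Calm2 (0.25) were the 2 that were higher, and Rhob, the most abundant of the list per length, was lower (-0.31). Of 10 cytoplasmic actin and nonmuscle myosin genes, 6 were higher and 4 lower, with a median of 0.05. Myh9 (0.44), Myh10 (0.29) and Actn4 (0.22) had the smallest p-values of that list and Actb (0.20) the highest level. These values were 0.31 for Myh9, 0.11 for Myh10, 0.09 for Actn4 and 0.10 for Actb without control replicate 1, and that of Calm2 was then 0.15.

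Of 15 tested genes of dense plaques and the sarcolemma (Sgca did not pass the filter), 7 were higher and 8 lower, with a median of -0.02. Nexn, an actin filament binder, had the smallest p-value of that list (log2 fold change 0.38, SE 0.10, both controls at 128 CPM). Lpp (-0.26) lay below 0, and the most abundant, Cavin1, was at 0.05. Of 12 factors known to act with or against SRF, 8 were higher and 4 lower, with a median of 0.11. Mef2c (0.36) and Klf5 (-0.61) were the 2 with an unadjusted p-value under 0.05, ahead of Mef2a (-0.27), and Klf4 was the most abundant (-0.14). The value of Mef2c was 0.21 and that of Klf4 0.11 without control replicate 1. Of 20 tested striated muscle genes, of 30 listed, 11 were higher and 9 lower, none at an unadjusted p-value under 0.05, with a median of 0.02. The lowest p-values of that list were those of Acta1 (0.52), Neb (0.48) and Tnni3 (0.88), and Actc1 (-0.44) had its highest level. Acta1 was at 0.22, Neb at 0.20 and Actc1 at -0.78 without control replicate 1, and Actc1 at -0.0077 without control replicate 2. For comparison, 5.65% of all genes tested were higher and 6.75% lower at this threshold.

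Markers of other cells also differed between the libraries. The 8 fibroblast markers fixed for the check of the label were detected in every library, summing to 36320 and 38670 CPM in controls against 38820, 30540 and 32680 CPM after deletion, and all 8 had a log2 fold change below 0. The 7 alveolar myofibroblast markers summed to 20540 and 14170 against 15440, 12330 and 13630 CPM, while 4 of the 7 had a log2 fold change above 0, with a median of 0.16. Elastin, which makes up most of that sum, was highest in control replicate 1, where the contractile genes were lowest. Pericyte markers ranged from 571 to 618 CPM in the controls and from 540 to 614 CPM in the Igf1r-deleted libraries, and cardiac muscle markers from 55.9 to 91.3 and from 46.7 to 77.7 CPM.

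Markers of cells that a mesenchymal sort should lack were present in all libraries. The highest of them was near Acta2 in the controls, and far below Fhl1, Csrp1 and Flna. The epithelial marker Sftpc averaged 536 CPM in controls and 388 CPM after deletion. The hematopoietic marker Lyz2 averaged 323 and 238 CPM, against 531 and 913 CPM for Acta2. The 9 epithelial markers summed to 931 to 980 CPM in the controls and 447 to 1011 CPM in the Igf1r-deleted libraries. The 8 endothelial markers summed to 538 to 553 and 261 to 754 CPM, and the 5 mesothelial markers to 297 to 305 and 214 to 297 CPM. For the 8 hematopoietic markers the sums were 419 to 574 and 204 to 471 CPM. All 8 hematopoietic markers had a log2 fold change below 0, with a median of -0.81. Of these, 3 had an unadjusted p-value under 0.05 (edgeR), against 6.75% of all genes lower. Values below 0 were also held by 8 of the 9 epithelial (median -0.35), 5 of the 8 endothelial and 4 of the 5 mesothelial markers. The 10 genes of the response to tissue dissociation were all lower in Igf1r-deleted libraries, summing to 16420 to 18760 CPM in the controls and 11720 to 13610 CPM in the Igf1r-deleted libraries, with 6 of the 10 at an unadjusted p-value under 0.05, against 6.75% of all genes lower. SRF is also known to act on several of the immediate early genes among these 10. The part of these differences in the levels of the contractile genes was not tested.

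**Figure D5:**
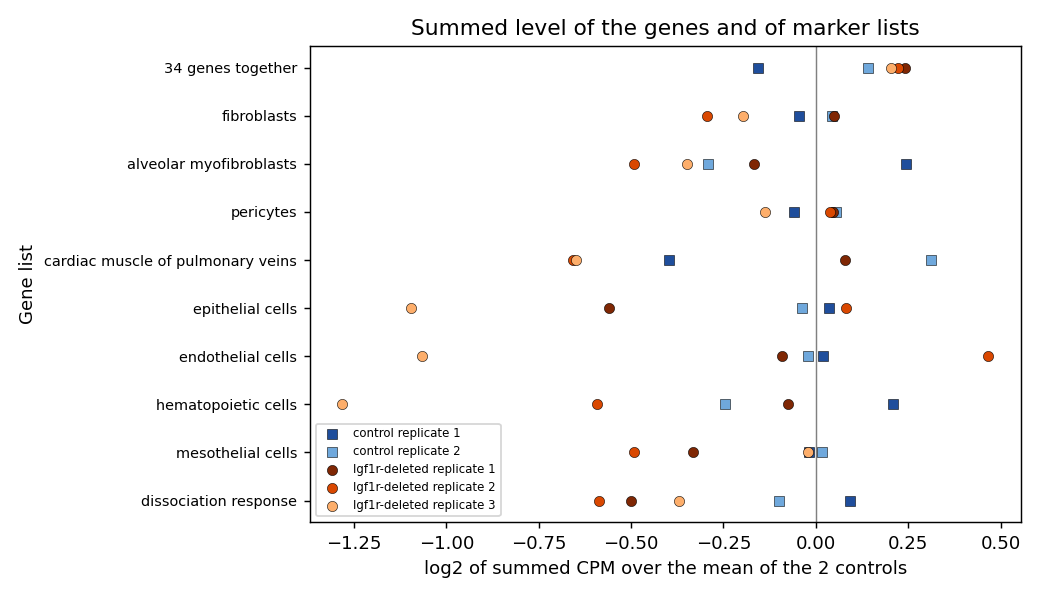
Summed CPM of the 34 genes and of each marker list in the 5 libraries, as log2 of the ratio to the mean of the 2 controls. The 34 genes together lie above both controls in all 3 Igf1r-deleted libraries, and the dissociation response below both.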

How the data were processed

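The authors sequenced 150-base paired reads, trimmed by Trim Galore and mapped by Bowtie2 (mm10), counted them on genes with Bioconductor's GenomicAlignments and deposited raw counts per gene symbol, 1 column per library, without normalization. Versions, gene annotation, strand and multimapping settings are not given in the sources used here. Every value column was used.

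The counts went into the two-sided quasi-likelihood F test of edgeR 4.0.16 under R 4.3.3 (limma 3.58.1), with TMM factors, filterByExpr, no term but genotype, and p-values adjusted over 15298 genes by Benjamini-Hochberg. SE is the log2 fold change divided by the root of F. The test was checked on simulated counts with changes larger than those of the genes described here. How often it detects changes of their size was not examined. Exon lengths and positions came from GENCODE M21 (mm10), where 331 symbols had no match, and promoters from RefSeq. The limit of 3 counts for a gene at 0 covers counting error only.

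The alternatives were DESeq2 1.42.0, other scalings, filters and fits, a replicate block and leaving out each library. All 34 genes are described. From each pathway list, written from general knowledge, the 3 genes with the smallest p-values and the most abundant per length are named, except 1 gene that is not reported here. The genes and lists were chosen with earlier results of these data known.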

Additional observations from a re-analysis of the deposited data

How the results depend on the processing

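The 32 genes higher in Igf1r-deleted cells were 29 to 33 in all 14 alternatives. The number of the 34 genes with an adjusted p-value under 0.05 was 0 with edgeR, 1 with DESeq2's Wald test (Acta2, adjusted p = 0.0483) and 2 with a replicate block (Myl9, adjusted p = 0.0395, and Des, adjusted p = 0.0139), and 0 in the other 12 alternatives. The controls and the Igf1r-deleted libraries share 2 replicate numbers, whose deviations from the group means correlated at 0.208 and 0.121 over all genes. Nothing in the labels ties same-numbered libraries together, so they were not treated as pairs. Over all genes the replicate block called 33 higher and 103 lower, against 0 without it. Igf1r-deleted replicate 3 has no control of its number, so in the block fit it adds nothing to the genotype difference or to the spread. With the block terms, little was left from which to estimate the spread, and the calls of that fit rest on this estimate. Without 1 library at a time, the number of the 34 genes at an unadjusted p-value under 0.05, 18 with all libraries, ran from 1 (without control replicate 1, where 181 of 15695 genes were higher and 252 lower at that threshold) to 26 (without control replicate 2, 1093 and 1242 of 15733), and was 8 without Igf1r-deleted replicate 2 (367 and 626 of 15100) and 11 without Igf1r-deleted replicate 3 (480 and 633 of 15153), against 865 and 1032 of 15298 with all libraries. The median log2 fold change ran from 0.19 to 0.57 over the same sets. The sign changed for Cnn1 (-0.037 to 0.70), Cnn2 (-0.013 to 0.21), Flnc (-0.037 to 0.53), Fhl1 (-0.13 to 0.044), Klf4 (-0.37 to 0.11) and Cavin1 (-0.037 to 0.11) when libraries were left out, and for Fhl1 (0.037) with library totals. Library totals in place of TMM also moved the split of all genes at an unadjusted p-value under 0.05 from 865 higher and 1032 lower to 1343 higher and 744 lower, and the median of all genes from 0.01 to 0.09, while that of the 34 genes went to 0.44. The cause of these shifts was not tested. With 2 controls that differ as much as these do, the number of libraries and not depth limits the precision.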

Other observations

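The library with the highest level differed between genes. Igf1r-deleted replicate 2 was highest for 22 of the 34 genes, against 20.0% of all genes tested. Igf1r-deleted replicate 1 was highest for 7 (Tpm1, Tpm4, Cald1, Cnn2, Csrp1, Csrp2 and Fhl1), near its share of all genes, 18.1%. Without Fhl1, Flna and Csrp1, the 3 genes with the most counts, the other 31 genes summed to 4395 and 5811 CPM in controls against 6513, 7385 and 6724 CPM after deletion.

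Tpm3, the nonmuscle tropomyosin, made up 9.84% and 8.19% of the 4 tropomyosins per length in controls against 6.72%, 6.75% and 6.67% after deletion, without overlap. Fgf18 and Wnt5a, which encode secreted factors and are among the alveolar myofibroblast markers, had their highest levels in Igf1r-deleted replicates 2 and 3 (Fgf18 22.9 and 34.6 against 31.7, 68.5 and 66.5 CPM, Wnt5a 360 and 401 against 426, 545 and 653 CPM), the libraries in which Acta2, Myl9 and Smtn were highest. They were picked out after their values were seen, and 3 of the 7 markers of that list, Pdgfra, Hhip and Eln, had log2 fold changes below 0 (Hhip -0.47, Eln -0.41), with the lowest levels of Hhip and Eln in Igf1r-deleted replicate 2.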
